A study of Mus musculus with 5 samples.

Results

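Egr1-positive mature neutrophils were taken as cells that carried at least 2 unique molecular identifiers (UMIs, each standing for 1 captured mRNA molecule) of Egr1 and that passed the same count thresholds for a mature, weakly activated neutrophil. Members were chosen by these counts, Egr1 included. Of 36720 cells that had 200 UMIs or more, 100 genes or more and a mitochondrial share under 20%, 14882 passed the other thresholds. These asked for S100a8 and S100a9 together at 2% or more of the UMIs, under 2 UMIs of C1qa, F13a1, Cd79a, Cd3e and Clec4g together (genes of macrophages, monocytes, B cells, T cells and sinusoidal endothelium), under 10 UMIs of the immature granule gene Ngp, under 3 UMIs of Il1a, Icam1 and Nr4a3 together and under 4 of Trem1 and Cd14 together. Among these, 2422 cells were Egr1-positive, 490 in the pool named YO1 and 1932 in the pool named YO2. They were set against the Egr1-zero cells of the same pool, 7408 in YO1 and 3500 in YO2. The 521 and 1031 cells with a single Egr1 UMI stood between the classes and entered neither.

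Intestine, spleen, liver, lung, marrow and blood gave the cells, which were sorted for CD11b and Ly6G with DAPI excluding dead ones. The mice were C57BL/6 (an inbred laboratory strain), kept specific-pathogen-free and at steady state. Old mice had an age of 20 months, and young mice one of 10 weeks in the sample labels or 8 weeks in the description of the design. Lung, liver, spleen and intestine were digested with enzymes, whereas blood and marrow were collected without that step being named. The experiment was done in 2 rounds, each multiplexed into 1 BD Rhapsody microwell cartridge, and each pool held both ages and several tissues. Since no barcode states its tissue or its mouse's age, the Egr1-positive and Egr1-zero cells may differ in tissue, in age or in digestion, and these cannot be told apart. The sources used here do not give the number of mice in a pool. Every p-value below rests only on the spread between the 2 pools, estimated in part across genes and not for each gene alone. A small p-value thus does not show that a gene had like ratios in both pools.

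Egr1 encodes a zinc-finger transcription factor and belongs to the immediate early genes, which are transcribed within minutes of a stimulus from factors already present in the cell, without new protein synthesis. Serum response factor with its ternary complex partners, and CREB-type factors at cAMP response elements, are the textbook routes to this class, and Fos, Jun, Nr4a1 and the dual-specificity phosphatases that switch MAP kinases off belong to the same wave. In neutrophils the same stimuli also release NF-kB, which drives chemokines and inflammatory mediators, and warm enzymatic digestion of tissue is known to raise many of these genes in cells of several kinds.

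The label was held against its markers first. Egr1 chose the cells, so its levels are given as a description: the positive cells held a median of 3 Egr1 UMIs in each pool, with a highest count of 17 in YO1 and 29 in YO2. The cells just inside the threshold, with exactly 2 Egr1 UMIs, numbered 214 in YO1 and 637 in YO2. Taf7, a subunit of the general transcription factor TFIID and the second marker named for these cells, was at 121 CPM (UMIs of a gene per 1e6 UMIs of the class) in Egr1-positive cells of YO1, against 57.4 CPM in Egr1-zero cells, and at 235 CPM in Egr1-positive cells of YO2, against 125 CPM. Taf7 was therefore higher in both pools, by a ratio of 2.10 (95% counting interval 1.61 to 2.70) in YO1 and 1.89 (1.68 to 2.11) in YO2, but it is a low transcript, found in 11.8% of positive and 5.44% of Egr1-zero cells of YO1 and in 24.7% and 12.5% of those of YO2. It was proposed as a marker with these data known, so its levels are a description, and nothing is read from its place among the genes called below.

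Neutrophil markers were abundant in both classes, which the gate had already chosen by S100a8 and S100a9. The 12 neutrophil markers (among them the G-CSF receptor Csf3r, the chemokine receptor Cxcr2 and the histamine-forming enzyme Hdc) summed to 42663 CPM in Egr1-positive cells and 47129 CPM in Egr1-zero cells of YO1, and to 37082 and 38650 CPM in the same classes of YO2, and none of the 12 was at 0 in any class. All 2422 positive cells held at least 3 UMIs of that list, as did 7404 of 7408 Egr1-zero cells of YO1 and all 3500 of YO2. The list thus does not set the classes apart. Some positive cells of YO1 also held many MHC class II UMIs, as given further on. Ly6g, whose protein was used in the sort, was the lowest of the 12 in each class, at 52.7 and 81.4 CPM in the positive cells of YO1 and YO2, against 256 and 98.9 CPM in the Egr1-zero cells.

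The share of Egr1-positive cells differed widely between the pools, at 5.82% of 8419 gated cells in YO1 (exact 95% interval 5.33 to 6.34) and 29.9% of 6463 in YO2 (28.8 to 31.0). YO2 was also sequenced more deeply, with a median of 1244 UMIs per gated cell against 992 in YO1. With cells of at least 800 UMIs thinned to 800, the shares were 4.71% of 6517 and 20.4% of 6241, so the gap was present at equal depth in those cells. The 1902 gated cells of YO1 and 222 of YO2 under 800 UMIs were left out. In the whole gate Egr1 stood at 242 CPM in YO1 and 1107 CPM in YO2. Rounds differed in animals, preparation and library at once, and these cannot be told apart.

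Egr1 was not restricted to the gated cells. Neutrophils set aside for at least 4 UMIs of Trem1 and Cd14, receptors that mark activation, had 2 or more Egr1 UMIs in 31.3% of cells in YO1 and 44.5% in YO2, at 1007 and 1337 Egr1 CPM. Immature neutrophils with at least 10 Ngp UMIs were the lowest neutrophil class, at 27.0 and 260 CPM, with 2 or more Egr1 UMIs in 1.56% and 19.5% of cells although their median depth was 3082 and 4245 UMIs. B cells with at least 2 Cd79a UMIs had 2 or more Egr1 UMIs in 9.24% and 12.8% of cells at median depths of 1330.5 and 3898 UMIs, and in 2.42% and 3.06% once thinned to 800 UMIs. T cells with at least 2 Cd3e UMIs had them in 0 of 23 cells in YO1, with an exact 95% upper bound of 14.8%, and in 3 of 28 in YO2. At equal depth the gated share of 4.71% and 20.4% was thus above the B-cell share in both pools, but it was not the highest. The thinned share was 22.0% and 25.5% in the neutrophils with at least 4 Trem1 and Cd14 UMIs. It was 19.9% and 13.8% in cells with at least 2 UMIs of the macrophage gene C1qa, and 2.06% of 97 and 42.9% of 21 in cells with at least 2 UMIs of the eosinophil gene Ccr3.

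**Figure D1:**
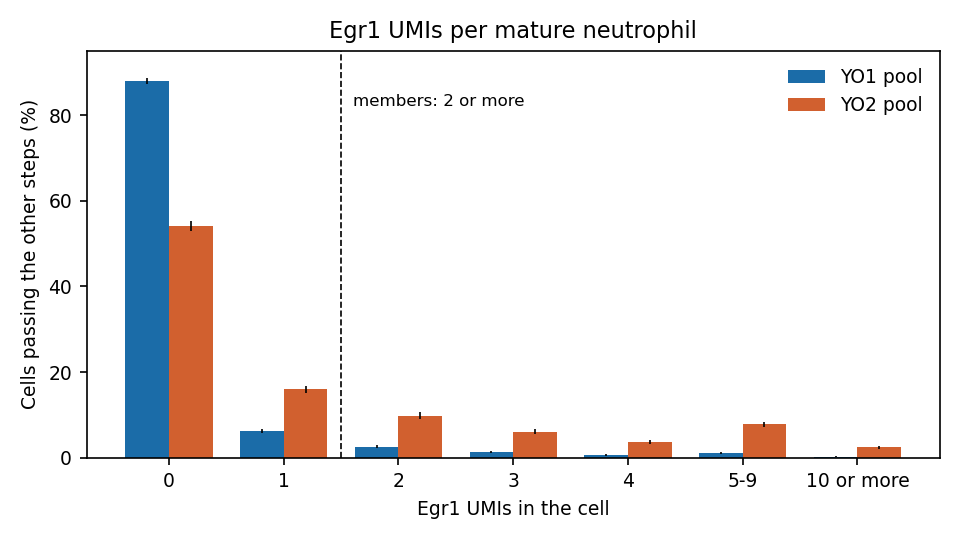
Share of gated mature neutrophils (y axis, %) by the number of Egr1 UMIs in the cell (x axis), with YO1 in blue, YO2 in orange and exact 95% intervals as bars. The dashed line marks the threshold, and the cells with 2 or more UMIs to its right make up 5.82% of YO1 and 29.9% of YO2.

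The 2 classes were compared across all genes on UMIs summed per pool and class, with edgeR's quasi-likelihood test and the pool as a block. Of 8145 genes tested, 67 were higher in Egr1-positive cells at a Benjamini-Hochberg adjusted p under 0.05 (0.823% of those tested) and 28 were lower (0.344%), 1.17% in all. The higher genes were led by chemokines, orphan receptor and AP-1 transcription factors, phosphatases that damp MAP kinase signalling and, in YO1, MHC class II genes. The lower genes included granule and immature neutrophil genes. In 64 of the 67 the Egr1-positive cells were higher in both pools, and in 24 of the 28 they were lower in both.

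The differences were larger in YO1. The ratio was larger in YO1 than in YO2 for 60 of the 67 higher genes, whose median log2 ratio was 1.32 in YO1 and 0.55 in YO2. Of the 67, 57 had 95% counting intervals above 1 in both pools, and 23 of the 28 had them below 1 in both, where 1.63% and 1.57% of all genes tested did so. The calls and the ratios come from the same sums, so these counts describe the calls and are no separate support for them. Positive cells were slightly deeper than Egr1-zero cells, with median UMIs of 1048.5 and 987 in YO1 and of 1310 and 1216 in YO2. Cells of at least 800 UMIs were then thinned to 800, with the classes still set by Egr1 at full depth. After this, 23 of the 27 higher genes named here by rule had intervals above 1 in both pools. Of the others, Cd74, H2-Ab1 and H2-Eb1 lacked them at full depth too, and Hsp90aa1 lost them. Egr3 lacked them at full depth and had them after thinning. The 27 were chosen among genes called in the whole gate, on largely the same cells. How many of all genes tested had such intervals after thinning, or in the settings below, was not worked out.

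With 2 pools the fit has little to estimate the spread from, and the number of calls moved with the settings. Ratios within pools moved too, for some genes more than for others. A further setting kept only cells with no UMI of Il1a, Icam1, Nr4a3, Trem1 or Cd14, 146 positive cells in YO1 and 621 in YO2. There 17 of the 27 higher and 2 of the 8 lower named genes had intervals clear of 1 in both pools. In YO2 the ratio was 1.02 (0.793 to 1.32) for Ccrl2 and 2.02 (1.79 to 2.27) for Nr4a1. In the whole gate, Trem1 or Cd14 was found in 69.8% of positive and 52.5% of Egr1-zero cells of YO1, and in 66.8% and 60.6% in YO2. Leaving out cells with any UMI of an MHC class II gene, a setting chosen after the data were seen, left 5 higher and 3 lower calls, DESeq2 called 17 and 2, and of the 35 named genes with a call only Ccl3 and Dusp2 kept it in every fit that held the pool as a block.

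**Figure D2:**
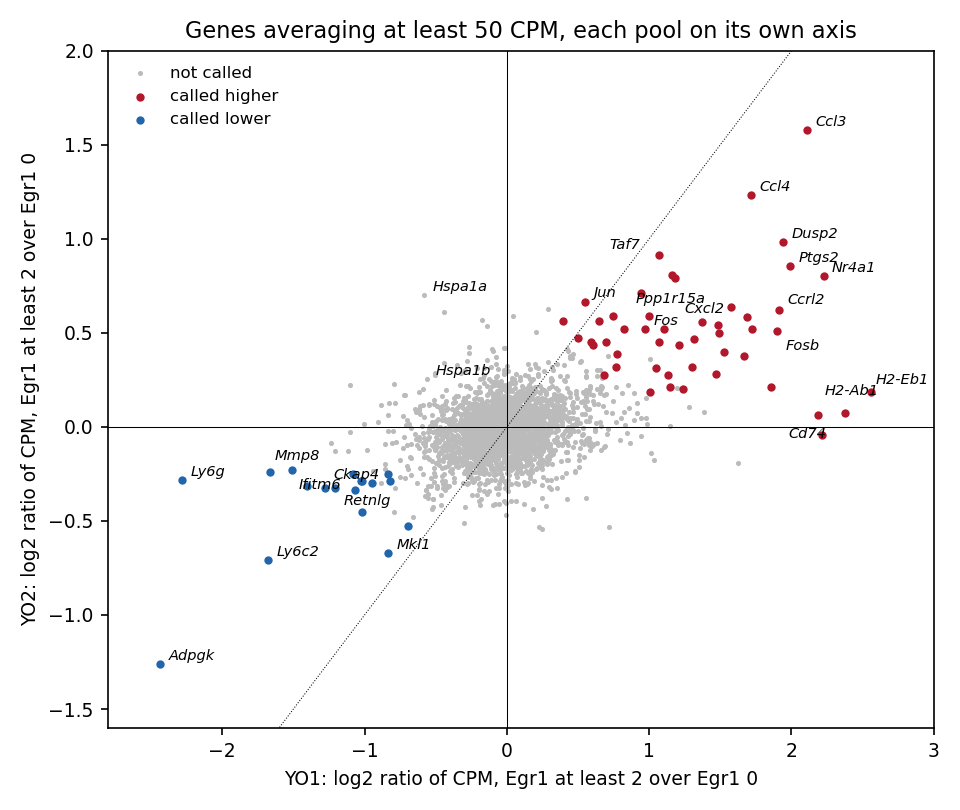
Log2 ratio of CPM, Egr1-positive over Egr1-zero, in YO1 (x axis) and YO2 (y axis) for the 2562 genes averaging at least 50 CPM, with genes called higher in red, called lower in blue and the rest in grey. The dotted line marks equal ratios; most coloured genes lie nearer the YO1 axis, and Hspa1a lies above 0 in YO2 and below 0 in YO1.

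Nr4a1 (chromosome 15, 101254269 to 101274795, plus strand, GRCm38), an orphan nuclear receptor that is an immediate early gene in many blood cells, led the transcription factors. It stood at 2122 CPM in Egr1-positive cells of YO1, against 454 CPM in Egr1-zero cells, and at 950 CPM in Egr1-positive cells of YO2, against 544 CPM. The positive cells were thus above the Egr1-zero cells of both pools, with ratios of 4.68 (4.38 to 4.99) and 1.75 (1.65 to 1.84), and edgeR gave a log2 change of 1.51 ± 0.19 (SE, 2 pools) with an adjusted p of 4.98e-05. Its relative Nr4a2 was a rare transcript, at 17.0 CPM in positive cells and 2.07 CPM in Egr1-zero cells of YO1, and at 4.43 and 1.10 CPM in those of YO2, and was also called (adjusted p = 0.019).

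Of the 9 AP-1 genes tested, 6 were higher in Egr1-positive cells and none lower, with a median log2 change of 0.61 where that of all genes tested was 0.00, and with median log2 ratios of 0.69 in YO1 and 0.51 in YO2. AP-1 is the dimer of Fos and Jun family proteins that binds TPA-response elements. Fosb changed most among the abundant members, at 781 CPM in positive and 209 CPM in Egr1-zero cells of YO1, and at 378 and 265 CPM in those of YO2 (adjusted p = 0.00063). Atf3, a stress-responsive repressor of the same family, was at 621 and 222 CPM in positive and Egr1-zero cells of YO1 and at 273 and 187 CPM in those of YO2 (adjusted p = 0.00037). Fos itself was abundant in both classes, which shows that Egr1-zero cells were not free of immediate early transcripts.

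Fos stood at 5342 CPM in positive and 2728 CPM in Egr1-zero cells of YO1 and at 5026 and 3500 CPM in those of YO2, ratios of 1.96 (1.89 to 2.03) and 1.44 (1.40 to 1.47). Jun, its classical partner, differed from most called genes in having the larger ratio in YO2, with a ratio of 1.46 (1.32 to 1.62) in YO1 and 1.59 (1.51 to 1.67) in YO2. Its YO1 difference was not present in cells without granule and progenitor UMIs, as given further on. Junb and the small Maf protein gene Maff completed the 6, at adjusted p-values of 0.044 and 0.017. Jund, Fosl2 and Batf did not pass. Fosl2 had ratios on opposite sides of 1, at 1.33 (1.23 to 1.43) in YO1 and 0.946 (0.902 to 0.993) in YO2. Fosl1 was too low to be tested, with 5.10 CPM in positive and 0.122 CPM in Egr1-zero cells of YO1, and 2.04 and 1.99 CPM in those of YO2.

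The other members of Egr1's own family were scarce. Egr2 was at 30.6 CPM in positive and 4.39 CPM in Egr1-zero cells of YO1 and at 14.6 and 7.51 CPM in those of YO2 (adjusted p = 0.029). Egr3 was at 22.1 and 0.244 CPM in those classes of YO1 and at 6.13 and 2.87 CPM in those of YO2, and its YO1 ratio of 90.7 carries an interval of 20.5 to 828 because the Egr1-zero sum is close to empty (adjusted p = 0.048). Egr4 had no UMI in either class. Nab1 and Nab2, corepressors that bind Egr proteins and in other cells are induced by Egr1 itself, did not pass: Nab1 had ratios of 1.24 (0.784 to 1.89) in YO1 and 0.857 (0.659 to 1.11) in YO2, and Nab2 stayed at or under 6.81 CPM in every class.

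Among 23 other immediate early genes tested, 7 were higher and none lower, with a median log2 change of 0.36 and median log2 ratios of 0.56 in YO1 and 0.16 in YO2. Beside the Nr4a receptors these were Ppp1r15a, which encodes the GADD34 subunit that reverses the stress block on translation, Btg2, an antiproliferative cofactor, Zfp36, whose protein tristetraprolin destabilizes cytokine mRNAs, and Csrnp1 and Ier2. Ppp1r15a was at 892 CPM in positive and 299 CPM in Egr1-zero cells of YO1 and at 394 and 253 CPM in those of YO2 (adjusted p = 0.00013). Btg2 was more abundant, at 4526 and 1612 CPM in YO1 and 2874 and 2032 CPM in YO2 for the same order of classes (adjusted p = 0.00046). Ier2 had nearly equal ratios in the pools, 1.57 (1.43 to 1.72) in YO1 and 1.48 (1.40 to 1.55) in YO2. The abundant survival gene Mcl1 did not pass, at ratios of 1.21 (1.16 to 1.26) and 1.04 (1.02 to 1.07).

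The sequence around the start site is shown for 4 higher genes, Nr4a1, Fosb, Ptgs2 (described further on) and Ppp1r15a, since CREB-type sites are a known route to this class. All 4 windows hold the letters marked below. Ccl3 and Cxcl2 were higher too, and their windows, not shown, hold none. The windows are those of RefSeq on GRCm38.p6, 300 bases each, 5′ to 3′ on the gene's strand: Nr4a1 from chr15:101266596-101266895 (plus), Fosb from chr7:19309996-19310295 (minus), Ptgs2 from chr1:150099781-150100080 (plus) and Ppp1r15a from chr7:45526219-45526518 (minus). Capitals mark the letters TGACG, the core of a cAMP response element, or its reverse complement CGTCA, and TGACGTCA where both overlap as the full palindrome.
Nr4a1: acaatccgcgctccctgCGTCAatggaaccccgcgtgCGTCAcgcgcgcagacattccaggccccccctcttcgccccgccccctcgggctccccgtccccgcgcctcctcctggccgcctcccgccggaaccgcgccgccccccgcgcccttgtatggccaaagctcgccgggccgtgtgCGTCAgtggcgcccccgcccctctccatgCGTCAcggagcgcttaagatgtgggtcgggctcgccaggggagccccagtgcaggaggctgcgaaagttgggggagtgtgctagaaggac
Fosb: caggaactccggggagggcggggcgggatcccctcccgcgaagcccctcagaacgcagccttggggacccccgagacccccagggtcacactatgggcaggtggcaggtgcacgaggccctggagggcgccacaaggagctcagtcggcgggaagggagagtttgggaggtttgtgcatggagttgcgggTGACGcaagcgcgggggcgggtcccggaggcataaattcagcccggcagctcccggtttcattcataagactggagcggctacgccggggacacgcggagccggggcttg
Ptgs2: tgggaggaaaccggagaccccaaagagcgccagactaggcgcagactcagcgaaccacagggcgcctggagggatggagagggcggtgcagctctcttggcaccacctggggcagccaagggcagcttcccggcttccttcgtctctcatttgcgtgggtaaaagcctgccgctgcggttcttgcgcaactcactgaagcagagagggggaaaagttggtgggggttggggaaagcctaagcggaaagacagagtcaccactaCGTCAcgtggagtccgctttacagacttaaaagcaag
Ppp1r15a: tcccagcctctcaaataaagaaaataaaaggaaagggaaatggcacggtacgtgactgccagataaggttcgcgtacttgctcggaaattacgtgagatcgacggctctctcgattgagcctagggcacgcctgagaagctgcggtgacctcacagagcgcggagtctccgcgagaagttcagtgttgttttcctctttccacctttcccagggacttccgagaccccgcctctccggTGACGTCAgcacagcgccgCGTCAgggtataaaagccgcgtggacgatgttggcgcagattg

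In these windows TGACG was found on either strand at 4 places in Nr4a1, at 1 in Fosb, at 1 in Ptgs2 and at 3 in Ppp1r15a, 2 of which overlap in a full TGACGTCA. Of the 67 higher genes 50 had a window, and 29 of these (58.0%) held TGACG, as did 3 of the 24 lower genes with a window (12.5%) and 23.0% of all 27025 genes with one. TGACGTCA was in 5 of the 50 (10.0%), in none of the 24 and in 2.03% of all. The windows of Ccl3, H2-Eb1 and Cxcl2 held neither. A match describes letters and not a bound site, and base composition was not matched. The 27025 genes also include many outside the 8145 tested, from which the called genes came. The share among tested genes was not worked out, so no enrichment is read from these shares.

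Genes that damp the same signals were higher too. Of 12 MAP kinase and cytokine feedback genes tested, 5 were higher and none lower, with a median log2 change of 0.38 and median log2 ratios of 0.82 in YO1 and 0.19 in YO2. Dusp2, a nuclear phosphatase of ERK and p38, was at 243 CPM in positive and 63.3 CPM in Egr1-zero cells of YO1 and at 107 and 54.3 CPM in those of YO2. Its ratios were 3.84 (3.17 to 4.63) and 1.97 (1.67 to 2.34), with a log2 change of 1.44 ± 0.17 (SE, 2 pools) and an adjusted p of 1.46e-05. Dusp5, which holds ERK in the nucleus, was at 362 and 110 CPM in YO1 and at 172 and 120 CPM in YO2 for positive and Egr1-zero cells (adjusted p = 0.00071).

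The NF-kB inhibitor genes Nfkbia and Nfkbiz and the ubiquitin-editing enzyme gene Tnfaip3 completed the feedback group. Their ratios were larger in YO1: the ratio was 2.36 (2.23 to 2.50) in YO1 and 1.15 (1.09 to 1.21) in YO2 for Nfkbia, and 3.61 (3.001 to 4.33) in YO1 and 1.16 (0.991 to 1.36) in YO2 for Tnfaip3. Dusp1, the most abundant phosphatase of the list, did not pass, at 8126 and 5016 CPM in positive and Egr1-zero cells of YO1 and at 4224 and 3742 CPM in those of YO2 (adjusted p = 0.11). The factors that transcribe immediate early genes were not called higher at the RNA level: of 10 genes for serum response factor, its partners and the upstream kinases, none was higher and 1, Mkl1, was lower, with a median of 0.02. Mkl1, an actin-sensing coactivator of serum response factor, was at 42.5 and 75.8 CPM in positive and Egr1-zero cells of YO1 and at 34.4 and 54.8 CPM in those of YO2 (adjusted p = 0.019).

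Chemokines and other secreted mediators held the largest change among genes averaging at least 50 CPM. Of 23 NF-kB and inflammatory output genes tested, 8 were higher and none lower, with a median log2 change of 0.49 and median log2 ratios of 0.74 in YO1 and 0.08 in YO2. Ccl3 (chromosome 11, 83647844 to 83649355, minus strand) encodes the chemokine MIP-1α and gave the largest log2 change of the genes named by size. It stood at 592 CPM in Egr1-positive cells of YO1, against 137 CPM in Egr1-zero cells, and at 158 CPM in Egr1-positive cells of YO2, against 52.8 CPM. Both pools moved in the same direction, with ratios of 4.32 (3.82 to 4.88) and 2.99 (2.55 to 3.51), and the log2 change was 1.86 ± 0.13 (SE, 2 pools) with an adjusted p of 7.47e-09. Its neighbour Ccl4 (83662584 to 83664683, plus strand), which encodes MIP-1β, was at 196 and 59.5 CPM in YO1 and at 80.0 and 34.0 CPM in YO2 for positive and Egr1-zero cells (adjusted p = 1.39e-06).

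Ptgs2, the inducible cyclooxygenase that starts prostaglandin synthesis, was at 1495.5 CPM in positive and 376 CPM in Egr1-zero cells of YO1 and at 1108 and 613 CPM in those of YO2, ratios of 3.98 (3.69 to 4.29) and 1.81 (1.72 to 1.90) with an adjusted p of 1.81e-05. Cxcl2, a ligand of Cxcr2 that recruits further neutrophils, was at 2698 and 838 CPM in YO1 and at 1146 and 765 CPM in YO2 (adjusted p = 0.00020). Ccrl2, a receptor that presents chemerin without signalling itself, had ratios of 3.77 (3.27 to 4.33) and 1.54 (1.39 to 1.70). Il1b was the most abundant of the group, at 14625 and 6622 CPM in positive and Egr1-zero cells of YO1 and 8798 and 7592 CPM in those of YO2 (adjusted p = 0.019). Osm, a cytokine of the interleukin-6 family, and Marcksl1 were the others. Tnf did not pass: it was at 165 CPM in positive and 53.7 CPM in Egr1-zero cells of YO1 and at 31.3 and 35.8 CPM in those of YO2.

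Nr4a1, Fos and Ptgs2 were also higher in gated cells with more Egr1 UMIs, though not at every step. This is given as a description because cells of a bin share their pool and deeper cells can carry more Egr1 UMIs. In YO1, Nr4a1 stood at 454, 1149, 1730, 1925 and 3064 CPM in cells with 0, 1, 2, 3 to 4 and 5 or more Egr1 UMIs, and in YO2 at 544, 690, 735, 1064 and 1026 CPM. In YO1, Fos stood at 2728, 4108, 4723, 5343 and 6382 CPM over the same bins, and in YO2 at 3500, 3939, 4189, 4665 and 5995 CPM. Ptgs2 stood at 376, 864, 1158, 1561 and 1968 CPM in YO1 and at 613, 904, 872, 1010 and 1378 CPM in YO2. In YO2, Nr4a1 thus fell at the last step and Ptgs2 between 1 and 2 Egr1 UMIs. Ccl3 fell there too, at 52.8, 111, 94.0, 122 and 238 CPM over the bins of YO2. Cells with a single Egr1 UMI thus lay between the classes compared above for Nr4a1, Fos and Ptgs2 in both pools. Taf7 stood higher in each successive bin of YO2, at 125, 146, 181, 221 and 290 CPM, and in no such order in YO1, at 57.4, 119, 109, 107 and 162 CPM.

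**Figure D3:**
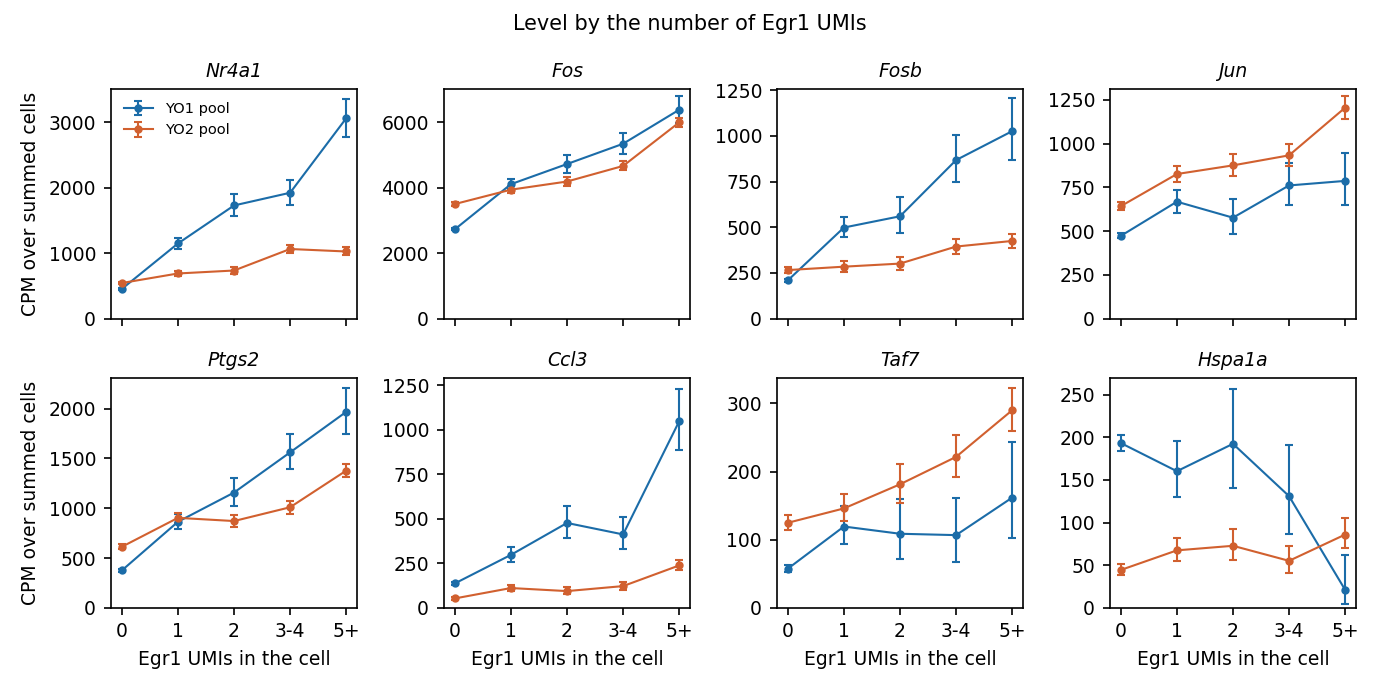
CPM over summed cells (y axis) by the number of Egr1 UMIs in the cell (x axis) for 8 genes, with YO1 in blue, YO2 in orange and 95% counting intervals as bars. Nr4a1 reaches 3064 CPM in YO1 cells with 5 or more Egr1 UMIs, and Hspa1a stands at 21.1 CPM there and at 85.9 CPM in the same bin of YO2.

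Taf7 belongs to TFIID, the complex that places RNA polymerase II at promoters. Of 13 subunit genes tested, none other than the marker itself was called. The median log2 change of the 13 was 0.06 in the fit, while the median log2 ratios were -0.05 in YO1 and -0.02 in YO2. Taf10 had ratios of 0.963 (0.671 to 1.34) in YO1 and 1.16 (0.975 to 1.38) in YO2, and Taf12 had 0.861 (0.545 to 1.30) and 0.986 (0.797 to 1.22), so neither pool's interval left 1 for either. Taf7 lies on chromosome 18, as Egr1 does, and is known for a coding sequence without introns.

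Whether the Egr1-positive state looks like a response to handling was asked with the lists that bear on it. Of 34 genes often induced by tissue digestion, 13 were higher and none lower, with a median log2 change of 0.43 and median log2 ratios of 0.56 in YO1 and 0.30 in YO2. All 13 but Hsp90aa1 also stand in the AP-1, other immediate early or feedback lists above, so the list adds little that is separate from them. The members outside those lists were mostly not called: the cyclin Ccnl1 had ratios of 1.57 (1.37 to 1.80) in YO1 and 1.24 (1.14 to 1.34) in YO2 (adjusted p = 0.059), and the metallothionein Mt1 had 1.47 (0.782 to 2.55) and 1.38 (0.921 to 2.05).

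Heat shock genes, the part of a dissociation response that does not overlap with immediate early genes, were uneven. Of 16 tested, 2 were higher and none lower, with a median log2 change of 0.22 and median log2 ratios of 0.26 in YO1 and 0.11 in YO2. Hspa5, the chaperone BiP of the endoplasmic reticulum, was at 526 and 345 CPM in positive and Egr1-zero cells of YO1 and at 604 and 447 CPM in those of YO2 (adjusted p = 0.019). Hsp90aa1, the inducible cytosolic Hsp90, was at 233 and 177 CPM in YO1 and at 235 and 159 CPM in YO2 (adjusted p = 0.042). The classical inducible Hsp70 gene Hspa1a went opposite ways. It was at 129 CPM in positive and 193 CPM in Egr1-zero cells of YO1, a ratio of 0.669 (0.525 to 0.843), and at 72.2 and 44.4 CPM in those of YO2, a ratio of 1.63 (1.33 to 1.98). Its near-identical copy Hspa1b had ratios of 0.679 (0.562 to 0.813) and 1.19 (1.003 to 1.42), and the sources used here do not say how reads were split between the copies.

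No other gene of this list was called. Dnajb9, a cochaperone gene outside the list, was called higher (adjusted p = 0.00037). Its ratios were 2.24 (1.67 to 2.95) in YO1 and 1.75 (1.51 to 2.03) in YO2. Hspa8, the constitutive Hsp70, had ratios of 1.09 (0.987 to 1.19) in YO1 and 1.06 (1.0006 to 1.13) in YO2, and Hsp90ab1 had 0.949 (0.826 to 1.09) and 1.05 (0.959 to 1.15). The cochaperone Dnajb1 had 1.35 (1.05 to 1.71) and 1.32 (1.14 to 1.53) without passing the test (adjusted p = 0.22). Dnaja1, a cochaperone of the same family, had 1.49 (1.35 to 1.65) in YO1 and 1.07 (1.01 to 1.13) in YO2 (adjusted p = 0.42). Hsp90b1, the Hsp90 of the endoplasmic reticulum, had 1.48 (1.21 to 1.80) and 1.098 (0.959 to 1.26). Hspb1 and Bag3, strongly heat-inducible in many cell types, were too low to be tested, at or under 2.44 CPM in every class.

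Mitochondrially encoded transcripts, which are a common sign of cell damage, differed between the classes in YO1 and hardly in YO2. They took 1.80% of UMIs in Egr1-positive and 1.07% in Egr1-zero cells of YO1, and 0.670% and 0.667% in those of YO2. None of the 13 mitochondrial genes was called, and their median log2 ratio was 0.86 in YO1 and 0.04 in YO2. The hypoxia and glycolysis list had 1 call of 19, Hilpda, a lipid droplet protein gene at 13.6 and 3.17 CPM in positive and Egr1-zero cells of YO1 and 19.7 and 7.29 CPM in those of YO2. The part of digestion, of cell damage and of the tissue in the differences above was not tested, since no barcode carries a tissue.

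MHC class II genes were among the largest changes, and they rested on few cells of 1 pool. H2-Eb1 was at 403 CPM in positive and 68.4 CPM in Egr1-zero cells of YO1 and at 47.0 and 41.3 CPM in those of YO2, and H2-Ab1 and the invariant chain Cd74 showed the same split, with ratios of 5.20 (4.56 to 5.91) and 4.54 (4.15 to 4.98) in YO1 and 1.05 (0.879 to 1.25) and 1.04 (0.934 to 1.16) in YO2. The 4 genes Cd74, H2-Aa, H2-Ab1 and H2-Eb1, grouped after these values were seen, summed to 2567 CPM in positive and 527 CPM in Egr1-zero cells of YO1 and to 382 and 368 CPM in those of YO2. The 4 dendritic cell markers Cd74, H2-Ab1, Flt3 and Siglech summed to 1627 CPM in positive and 343 CPM in Egr1-zero cells of YO1 and to 258 and 248 CPM in those of YO2, with Siglech at 0 in both classes of YO1 and Flt3 at 5.10 and 1.22 CPM there. In YO1, 28 positive cells (5.71%) held 3 or more UMIs of the 4 class II genes and with them 95.2% of the 1509 UMIs of the class. Cd209a, a dendritic cell lectin, was called higher on 23 UMIs from 6 positive cells of YO1. The part of such cells in the other differences is given next by leaving them out.

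Without any cell that held an MHC class II UMI, 21 of the 27 higher genes named by rule had intervals above 1 in both pools. The share of all genes tested that had them there was not worked out. There Nr4a1 was at 2170 and 429 CPM in positive and Egr1-zero cells of YO1 and at 851 and 490 CPM in those of YO2, ratios of 5.06 (4.70 to 5.45) and 1.74 (1.62 to 1.86). Ccl3 had 4.78 (4.18 to 5.46) and 2.62 (2.14 to 3.22), and Ptgs2 4.05 (3.72 to 4.41) and 1.84 (1.73 to 1.97). The ratios within pools were thus as large for Nr4a1 and Ptgs2 without these cells, although their calls were lost.

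Granule and immature neutrophil genes made up 7 of the 28 genes lower in Egr1-positive cells. Of 18 such genes tested, 7 were lower and none higher, with a median log2 change of -0.59, at -1.001 in YO1 and -0.14 in YO2. Mmp8, the neutrophil collagenase of specific granules, was at 791 CPM in positive and 2504 CPM in Egr1-zero cells of YO1 and at 1110 and 1312 CPM in those of YO2, ratios of 0.316 (0.288 to 0.346) and 0.846 (0.811 to 0.883) with an adjusted p of 0.011. Retnlg, a resistin-like protein gene abundant in circulating neutrophils, was at 8015 and 18528 CPM in YO1 and at 7560 and 9477 CPM in YO2 (adjusted p = 0.0063). Ly6g had ratios of 0.206 (0.140 to 0.293) and 0.823 (0.700 to 0.964). Lcn2, Wfdc21, Mmp25 and Cybb, the last a subunit of the NADPH oxidase, were the others.

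Beyond that list, Ly6c2, which encodes a Ly6C antigen of monocytes and young neutrophils, was at 90.2 and 289 CPM in positive and Egr1-zero cells of YO1 and at 74.2 and 121 CPM in those of YO2 (adjusted p = 0.000355). Ifitm6 and Ckap4 were lower at adjusted p-values of 0.019 and 0.014. Adpgk, the ADP-dependent glucokinase gene, gave the largest fall by rule, at 30.6 CPM in positive and 166 CPM in Egr1-zero cells of YO1 and at 11.2 and 26.9 CPM in those of YO2, with a log2 change of -1.82 ± 0.22 (SE, 2 pools) and an adjusted p of 2.02e-05. Once every cell with a UMI of Ngp, Ltf, Camp, Fcnb, Mpo, Elane, Prtn3, Ctsg, Ly6g, Mmp8 or Cd177 was left out of both classes, a setting chosen after the data were seen, Adpgk stood at 26.1 and 17.3 CPM in YO1 and at 13.1 and 11.5 CPM in YO2 for positive and Egr1-zero cells, ratios of 1.51 (0.459 to 3.90) and 1.14 (0.499 to 2.49). Ly6c2 then had 0.966 (0.528 to 1.65) in YO1 and 0.548 (0.368 to 0.801) in YO2, Ckap4 had 0.871 (0.595 to 1.24) and 0.900 (0.729 to 1.11), and Ifitm6 had 0.554 (0.361 to 0.816) and 1.03 (0.874 to 1.21). Mmp8 and Ly6g were at 0 there because the setting removes every cell that holds them.

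In that setting 20 of the 27 higher genes named by rule had intervals above 1 in both pools, and 1 of the 8 lower genes named by size, Retnlg, had them below 1 in both. Since the setting selects on genes that were themselves lower, the 2 counts cannot be compared. Nr4a1 had ratios of 3.40 (3.04 to 3.80) in YO1 and 1.72 (1.57 to 1.88) in YO2 there, Ccl3 3.11 (2.51 to 3.84) and 4.15 (3.19 to 5.46), and Fos 1.55 (1.45 to 1.65) and 1.49 (1.43 to 1.55). The pools were closer to each other in these cells for Nr4a1 and Fos than in the whole gate. For Ccl3 the larger ratio passed from YO1 to YO2, with intervals that overlap. Jun lost its difference in YO1, at 0.956 (0.792 to 1.15), and kept it in YO2, at 1.54 (1.41 to 1.69). The MHC class II genes had larger YO1 ratios than in the whole gate, 17.8 (12.7 to 25.1) for H2-Eb1.

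Several programmes of mature neutrophils held few or no calls, as did the genes tested as a whole, of which 1.17% were called. None of 17 trafficking and chemoattractant receptor genes tested was called, with a median of -0.08, although 7 had intervals below 1 in both pools, where 1.57% of all genes tested did, and 2 had them above 1. Cxcr2 had ratios of 0.933 (0.887 to 0.980) and 0.940 (0.918 to 0.962), and Cxcr4, the marrow-homing receptor that climbs as neutrophils age, had 1.27 (1.18 to 1.36) and 1.0004 (0.960 to 1.04). None of 17 interferon-stimulated genes was called, with a median of -0.05. Of the sets that mark other mature neutrophils in these pools, none of 4 genes of the Scnn1a and Slc40a1 set was called and 1 of 6 of the Stfa2l1 and Asprv1 set was lower, Stfa3, a stefin at 5.10 and 33.2 CPM in YO1 and 3.40 and 9.49 CPM in YO2 whose copies are alike enough to share reads. Among 17 apoptosis and survival genes, the kinase gene Pim1 was the single one called, at 3352 and 1599.5 CPM in positive and Egr1-zero cells of YO1 and 2675 and 1960 CPM in those of YO2 (adjusted p = 0.0015). Of 92 ribosomal protein genes only Rpl22l1 was called. Yet 7 of them had intervals above 1 in both pools, where 1.63% of all genes tested did, and 0 had them below. Their median log2 ratio was 0.19 in YO1 and 0.06 in YO2. Neither of the 2 nuclear RNAs tested, Malat1 and Neat1, was called.

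**Figure D4:**
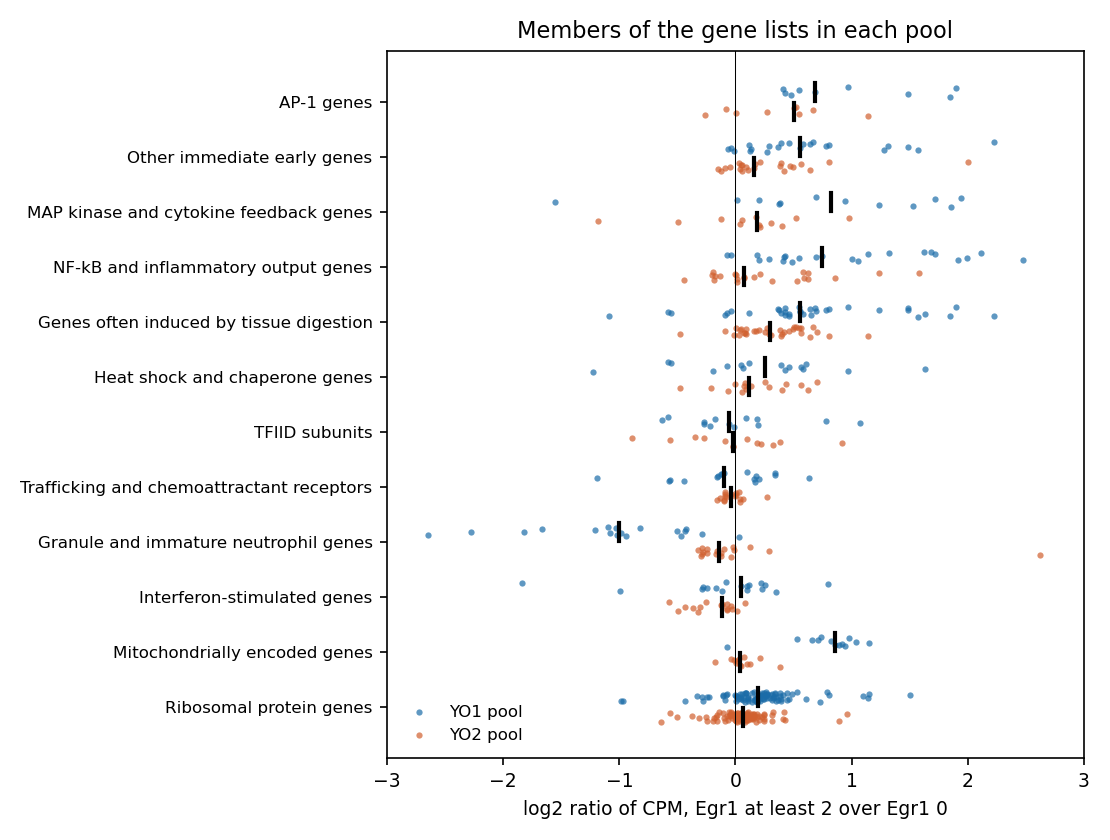
Log2 ratio of CPM, Egr1-positive over Egr1-zero (x axis), of each tested member of 12 gene lists (rows), with YO1 in blue above YO2 in orange and black bars at the list medians of each pool; 1 point lies beyond the axis. The AP-1 medians sit right of 0 in both pools, granule genes sit left with a median of -1.001 in YO1, and mitochondrially encoded genes sit right in YO1 only.

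Among the lists of markers of other cell types, those of B cells and plasma cells differed between pools more than between classes. Macrophage and monocyte markers summed to 580 and 752 CPM in positive and Egr1-zero cells of YO1 and to 520 and 552 CPM in those of YO2. Single members went both ways in YO1. Csf1r, the largest, was at 282 and 334 CPM in positive and Egr1-zero cells there, and Ly6c2 at 90.2 and 289 CPM. C1qb was at 42.5 and 5.73 CPM in the same order. Ccr2 was called higher by edgeR (adjusted p = 0.018), at 57.8 and 23.9 CPM in YO1 and at 9.87 and 4.42 CPM in YO2. B-cell markers summed to 216 and 261 CPM in YO1 and to 1622 and 1264 CPM in YO2, where 68.9% of positive and 66.5% of Egr1-zero cells held at least 1 such UMI. These were immunoglobulin transcripts almost wholly: Igkc stood at 1421 and 1123.5 CPM and Ighm at 198 and 137 CPM in positive and Egr1-zero cells of YO2, while Cd79b and Ms4a1 were at or under 1.77 CPM in every class. Their part in the differences was not tested. Plasma cell markers were at 17.0 and 37.2 CPM in YO1 and at 671 and 703 CPM in YO2. T and NK cell, endothelial, eosinophil, basophil, platelet, erythroid and epithelial lists each stood at or under 76.6 CPM in every class. Under that level, classes differed in both directions. In positive and Egr1-zero cells of YO1, basophil markers were at 22.1 and 2.44 CPM, and T and NK cell markers at 10.2 and 37.6 CPM. Epithelial and hepatocyte markers were at 37.4 and 11.5 CPM in YO1 and at 4.09 and 9.05 CPM in YO2. Granulocyte progenitor and cycling genes were at 22.1 and 446 CPM in YO1, where 9 Egr1-zero cells held 95.1% of the UMIs, and at 6.47 and 6.18 CPM in YO2.

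A few of the 28 lower calls came from such single cells. Mpo and Elane, azurophil granule genes of promyelocytes, had 1305 of 1330 and 1236 of 1275 UMIs of the Egr1-zero class of YO1 in their 10 highest cells, and Gzma and Ccl5, genes of cytotoxic lymphocytes, had 111 of 116 and 124 of 129. Inmt had 80 of its 82 UMIs in the Egr1-zero class of YO2 in 1 cell. These calls describe those cells and not the class. The pools shared 406 cell numbers, and doublets were not removed. Leaving out cells above the 95th percentile of UMIs left 8407 of 8419 gated cells of YO1 and all 6463 of YO2, so it says nothing about doublets here.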

How the data were processed

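The authors deposited 1 matrix of UMI counts from their BD Rhapsody libraries, whole numbers for 21995 genes in 38072 barcodes, and it was used unscaled. The submitters' processing notes name the mm10 build, and for aligner, annotation and cell calling the sources used here give nothing. Libraries of sample tags and of antibody oligos were not analysed here. Depth was 39713846 UMIs in YO1 and 41839786 in YO2. Intervals and floors cover counting error only.

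The members, thresholds, gene lists and tests were chosen with earlier results of these data known. Doublets were not removed. UMIs were summed per pool and class. The quasi-likelihood test of edgeR 4.0.16 (R 4.3.3) was run on the 4 sums, two-sided, after filterByExpr and TMM, with Benjamini-Hochberg adjustment at 0.05 and with the pool as a block because both classes of a pool come from 1 library. That leaves 1 residual degree of freedom. Egr1 and the other genes of the rule stayed in the totals and were not tested. Ratios of CPM within a pool carry exact 95% counting intervals, and shares carry Clopper-Pearson intervals. The text names by size the 12 highest and 8 lowest log2 changes among called genes averaging at least 50 CPM with the same sign in both pools, gene models, ribosomal and mitochondrial genes skipped. Also named by rule were every AP-1, Egr family and heat shock gene and the 3 most abundant genes of each other list, except some that are not reported here. Other genes given with values were chosen after these were seen.

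Alternatives were DESeq2 1.42.0, scaling by total UMIs, no filter on low counts, no block, an added class of cells with 1 Egr1 UMI, cells of 800 to 2000 UMIs, thinning to 800 UMIs, at least 3 Egr1 UMIs, activation or lineage genes at 0, and no cells above the 95th percentile of UMIs. Added after seeing the data were MHC class II genes at 0, granule and progenitor genes at 0, and at least 500 UMIs. The fit was tested on simulated data. Gene positions are those of GRCm38 and promoter windows those of RefSeq on GRCm38.p6. Scripts ran on Python 3.11.15 with pandas 2.3.3, numpy 2.4.6, scipy 1.17.1 and matplotlib 3.10.9.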

Additional observations from a re-analysis of the deposited data

Results flagged for a closer look

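In 3 of the genes named by rule the pools went opposite ways, with the 95% counting interval of the ratio wholly above 1 in one pool and wholly below 1 in the other; the difference between the pools was not tested. The ratio of Egr1-positive to Egr1-zero cells was 0.669 in YO1 and 1.63 in YO2 for Hspa1a, 0.679 and 1.19 for Hspa1b, and 1.33 and 0.946 for Fosl2.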

How the results depend on the processing

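With the pool as a block, 67 genes were higher and 28 lower. The block rests on both classes of a pool sharing a library; without the block there were 0 higher and 0 lower calls, and 200 genes at an unadjusted p under 0.05, where 577 stood with it. Counts of higher and lower calls were 17 and 2 with DESeq2, 26 and 1 in cells of 800 to 2000 UMIs, 27 and 2 with activation genes at 0, 15 and 6 with lineage genes at 0, 5 and 3 with MHC class II genes at 0, 53 and 8 with granule and progenitor genes at 0 and 20 and 6 in cells of at least 500 UMIs. Without the low-count filter 45 genes were lower, and with the 1-UMI class in the fit 15 were. The calls could not be fitted with 1 pool left out. Adpgk reversed to a log2 change of 0.35 with granule and progenitor genes at 0; the cause was not tested. The share of Egr1-positive cells in YO1 and YO2 was 6.52% and 27.8% in cells of 800 to 2000 UMIs, 3.84% and 26.6% with activation genes at 0, 7.20% and 28.8% with granule and progenitor genes at 0, 12.01% and 45.8% at a threshold of 1 UMI, 3.28% and 20.0% at 3 UMIs and 4.71% and 20.4% after thinning, and it was 28.6% in YO2 with MHC class II genes at 0. Medians of list log2 changes that moved by more than the spread between pools were mostly near 0. That of AP-1 genes was 0.34 with granule and progenitor genes at 0. That of serum response factor and kinases was -0.019 without the filter, -0.048 without the block, -0.034 after thinning, -0.024 at 3 UMIs, -0.063 with activation genes at 0 and -0.18 with granule and progenitor genes at 0. That of heat shock genes was 0.10 after thinning, 0.12 at 3 UMIs and 0.097 with MHC class II genes at 0. That of TFIID subunits was -0.026 with DESeq2, 0.013 without the block, -0.049 in cells of 800 to 2000 UMIs, 0.020 after thinning, -0.028 at 3 UMIs, -0.16 with activation genes at 0, 0.11 with MHC class II genes at 0 and 0.025 with granule and progenitor genes at 0. That of trafficking receptors was -0.12 without the filter, -0.019 after thinning and 0.052 with activation genes at 0. For the Scnn1a and Slc40a1 set it was -0.12 without the filter, -0.032 in cells of 800 to 2000 UMIs, -0.041 after thinning, -0.14 with activation genes at 0, -0.014 with MHC class II genes at 0 and -0.19 with granule and progenitor genes at 0. For the Stfa2l1 and Asprv1 set it was -0.16 in cells of 800 to 2000 UMIs, -0.35 after thinning, -0.33 at 3 UMIs, -0.017 with activation genes at 0 and -0.093 with granule and progenitor genes at 0. With either pool alone the median ran between 0.37 and 2.40 for the Egr family, 0.11 and 0.26 for heat shock genes, -0.054 and -0.018 for TFIID subunits, -0.15 and 0.025 for hypoxia genes, and -0.52 and -0.46 for the Stfa2l1 and Asprv1 set.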
